A study of Homo sapiens with 24 samples.

Results

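Small nucleolar RNA host transcripts were followed through 4 fractions of a sucrose density gradient, in cells that carried either the wild-type or a mutant form of DIS3. Members were the gene rows with counts in any library whose Ensembl identifier maps to a symbol made of SNHG and a number, with SNHG20 left out, and the rows of GAS5, ZFAS1, EPB41L4A-AS1, TAF1D and DANCR. The rule found 32 of the 61853 gene rows. RefSeq lists all of them as long noncoding RNAs except TAF1D, a protein-coding gene. Of the 32, 29 reached the minimum count needed for a test. SNHG18, SNHG27 and SNHG28 did not, with 4, 2 and 25.8 counts summed over the 24 libraries.

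The cells were 293T, a human embryonic kidney line. In every library DIS3 had been knocked down with the short hairpin DIS3-sh2 and then restored as DIS3 WT or as DIS3 D146N, so both sides of each comparison carried the knockdown and a rescue. DIS3 gives the RNA exosome its catalytic activity, degrades RNA from the 3′ end and also holds an endonuclease centre, and D146N replaces an aspartate of the endonuclease domain. Cytoplasmic RNA from fractions 3, 4, 7 and 8 was depleted of ribosomal RNA and sequenced, which gave 8 groups (WT or D146N, each with 4 fractions) of 3 libraries, called biological replicates by the submitters. The labels give neither the end of the gradient from which fractions were numbered nor whether a rescue line was a clone or a pool.

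Host genes are transcribed as longer RNAs whose introns release small nucleolar RNAs (snoRNAs) on splicing. Box C/D snoRNAs guide ribose methylation of ribosomal RNA, H/ACA snoRNAs guide pseudouridylation, and the related small Cajal body RNAs (scaRNAs) act on spliceosomal RNAs. The spliced remainder of several hosts, GAS5 being the textbook case, reaches the cytoplasm, is engaged by ribosomes on short reading frames and is turned over by nonsense-mediated decay. Many hosts also begin with a pyrimidine tract like that of ribosomal protein mRNAs, the 5′ terminal oligopyrimidine (TOP) motif.

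The starts of 10 hosts are printed below because they set 5 hosts that hold the tract at their first base beside 5 that do not, among hosts whose levels moved in different ways. Each line gives 20 bases before the annotated start and 40 bases from it, read on the transcript's strand, from RefSeq on GRCh38.p14. Capitals mark a tract that opens with C at the first transcribed base and goes on with at least 4 bases that are each C or T.
SNHG5 (chr6:85678694-85678753, minus strand): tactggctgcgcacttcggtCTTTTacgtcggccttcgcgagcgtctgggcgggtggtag
ZFAS1 (chr20:49278622-49278681, plus strand): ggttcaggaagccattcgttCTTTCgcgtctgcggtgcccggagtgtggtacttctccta
SNHG19 (chr16:2155319-2155378, minus strand): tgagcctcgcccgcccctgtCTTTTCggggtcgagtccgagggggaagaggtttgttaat
SNHG12 (chr1:28581834-28581893, minus strand): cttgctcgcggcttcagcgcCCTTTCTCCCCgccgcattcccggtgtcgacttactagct
SNHG32 (chr6:31834896-31834955, plus strand): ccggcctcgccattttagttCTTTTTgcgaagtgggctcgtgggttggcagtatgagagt
GAS5 (chr1:173869006-173869065, minus strand): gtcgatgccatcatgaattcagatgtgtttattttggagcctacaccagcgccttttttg
SNHG1 (chr11:62855846-62855905, minus strand): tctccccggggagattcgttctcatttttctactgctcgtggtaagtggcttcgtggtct
SNHG16 (chr17:76557744-76557803, plus strand): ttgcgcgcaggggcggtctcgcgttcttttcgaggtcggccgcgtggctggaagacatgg
SNHG10 (chr14:95534833-95534892, minus strand): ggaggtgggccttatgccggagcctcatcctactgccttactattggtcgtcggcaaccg
SNHG22 (chr18:49814003-49814062, plus strand): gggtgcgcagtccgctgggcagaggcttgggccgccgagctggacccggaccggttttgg
A promoter entry was matched for 28 of the 32 hosts, and SNHG6, SNHG9, SNHG15 and SNHG25 are named only. The tract stood at the first base in 8 of the 28 (28.57%): SNHG4, SNHG5, SNHG12, SNHG18, SNHG19, SNHG32, TAF1D and ZFAS1. Over all 35116 promoters in the same table it stood there in 1429 (4.069%). When it could start anywhere within 10 bases of the annotated start, 16 hosts held it (57.14%) against 29.37% of all promoters. These matches describe letters near an annotated start, and a start used in these cells may differ from it.

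Library totals ran from 21.2 to 33.0 M counts. DIS3, given as the check of the labels, ran in opposite fractions in the 2 genotypes: 91.4 to 112.2 CPM (counts scaled to the same library total) in WT fractions 3 and 4 and 4.54 to 6.28 CPM in WT fractions 7 and 8, but 7.79 to 9.63 CPM in D146N fractions 3 and 4 and 86.7 to 114.5 CPM in D146N fractions 7 and 8. Its row cannot separate the rescue from the cells' own DIS3. Of 13647 rows with a mean of at least 1 CPM, 84.4% were lower in all WT fraction 7 and 8 libraries than in any WT fraction 3 and 4 library, and 92.3% were higher in D146N. The effect of D146N within a fraction and the way fractions were numbered therefore cannot be told apart, and crosswise comparisons (D146N 7 and 8 against WT 3 and 4, and D146N 3 and 4 against WT 7 and 8) are given as well. WT fraction 8 replicate 3 stood apart from its replicates. The TMM host calls and medians that use it are also given without it, as are single values where stated. In those TMM fits the share of all genes called was not counted, so their host counts stand without a background. A list of 5 genes known from 293T summed to 58.0 to 246.9 CPM, almost all from VIM and GAL, while PAX2, NEFL and NEFM averaged at most 2.85 CPM in any group. A list of 8 liver genes, led by ALB and AFP, summed to 240.3 to 280.5 CPM in WT fractions 3 and 4 and D146N fractions 7 and 8, and to 9.88 to 60.3 CPM elsewhere. Lists of fibroblast, erythroid and epithelial genes reached at most 15.9, 2.78 and 70.4 CPM, with 1 of 6 erythroid genes at 0 in every library. The liver, fibroblast and epithelial lists were high in the fractions where most rows were high, so their sums also carry the fraction pattern. In bulk RNA, fewer cells of a type and less RNA per cell cannot be told apart, and the part of these genes in the host results was not tested.

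Host transcripts made up a small share of each library, and which hosts supplied it differed between fractions. In WT the 32 rows together held 0.249% ± 0.00546 of counts in fraction 3, 0.251% ± 0.00514 in fraction 4 and 0.320% ± 0.0166 in fraction 7 (SD, n = 3). WT fraction 8 held 0.404% ± 0.128, with 0.5515% in replicate 3 against 0.3329% and 0.3286% in replicates 1 and 2. The 4 D146N groups held between 0.260% and 0.275%. GAS5 supplied 23.9% ± 0.231 of the host counts in WT fraction 3 and 39.8% ± 0.26 in WT fraction 7, against 41.5% ± 0.343 in D146N fraction 3 and 21.8% ± 0.674 in D146N fraction 7. SNHG22 went the other way, from 15.2% to 0.453% in the same WT fractions and from 1.13% to 15.0% in the same D146N fractions. These shares do not depend on how libraries are scaled to each other.

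In CPM, 10 hosts were higher in every WT fraction 7 and 8 library than in any WT fraction 3 and 4 library and lower in D146N fractions 7 and 8: GAS5, SNHG5, ZFAS1, SNHG19, SNHG6, SNHG8, SNHG25, EPB41L4A-AS1, TAF1D and DANCR. CPM carries no correction for gene length, so levels are compared across groups and not between genes. Most rows behaved in the reverse manner: among rows with a mean of at least 1 CPM, 5.49% were higher without overlap in WT fractions 7 and 8 and 3.27% were lower without overlap in D146N fractions 7 and 8. Of the 27 hosts at that level, 11 were higher and 6 lower in WT, and 15 were higher and 10 lower in D146N.

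GAS5 (chr1:173863901-173869045), which carries SNORD44, SNORD47 and 9 other small RNAs, was the host with the most counts. Its WT values were 584.5, 589.7 and 613.7 CPM in fraction 3, 610.1, 616.8 and 602.4 in fraction 4, 1189, 1325 and 1309 in fraction 7, and 1335, 1311 and 1802 in fraction 8. The D146N libraries gave 1089, 1109 and 1113 CPM in fraction 3, 1102, 1023 and 1116 in fraction 4, 586.7, 580.9 and 584.7 in fraction 7, and 580.4, 574.5 and 568.1 in fraction 8. The lowest library of WT fractions 7 and 8 and of D146N fractions 3 and 4 lay above the highest of the other groups, and replicate 3 of WT fraction 8 was the highest of all.

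SNHG5 (chr6:85677007-85678733), host of SNORD50A and SNORD50B, showed the same order with a wider gap. Its values were 103.5, 102.5 and 107.2 CPM in WT fraction 3, 101.6, 111.7 and 103.0 in fraction 4, 406.1, 444.6 and 426.3 in fraction 7, and 438.6, 443.5 and 330.3 in fraction 8. In D146N they were 294.5, 320.0 and 302.7 CPM in fraction 3, 297.7, 276.1 and 304.3 in fraction 4, 86.4, 88.1 and 90.1 in fraction 7, and 89.9, 92.1 and 89.5 in fraction 8. The WT groups do not overlap, the D146N groups do not overlap, and replicate 3 of WT fraction 8 was the lowest of the 6 high WT libraries.

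ZFAS1 (chr20:49278178-49289260), which starts beside the start of ZNFX1 and carries SNORD12, SNORD12B and SNORD12C, had 105.2 to 113.2 CPM over the 6 libraries of WT fractions 3 and 4. It had 338.6, 369.9 and 357.7 CPM in WT fraction 7 and 365.5, 370.0 and 350.5 in WT fraction 8. In D146N it had 289.9 to 330.1 CPM in fractions 3 and 4 and 99.2 to 119.4 CPM in fractions 7 and 8. Here replicate 3 of WT fraction 8 was close to the other libraries of its group. SNHG19 (chr16:2154782-2155358), host of SNORD60, had 12.8 to 15.5 CPM in WT fractions 3 and 4 and 51.7 to 67.0 CPM in WT fractions 7 and 8. In D146N it had 28.4 to 35.0 CPM in fractions 3 and 4 and 9.19 to 13.6 CPM in fractions 7 and 8.

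The other 6 hosts of this kind are given by their ratios. The ratio of mean CPM in fractions 7 and 8 to that in 3 and 4 was 3.53 for SNHG25 (host of SNORD104), 2.66 for SNHG6 (SNORD87), 2.59 for EPB41L4A-AS1 (SNORA13), 2.44 for TAF1D, 2.23 for SNHG8 (SNORA24) and 2.17 for DANCR (SNORA26) in WT. Replicate 3 of WT fraction 8 raises the DANCR ratio, with 61.59 CPM against 32.3 and 32.85 in replicates 1 and 2. In D146N the same ratio was 0.442, 0.574, 0.431, 0.709, 0.706 and 0.835. TAF1D encodes a subunit of the selectivity factor of RNA polymerase I, so it is the 1 member whose spliced product is an mRNA. EPB41L4A-AS1 had 31.9 to 39.1 CPM in WT fractions 3 and 4 and 87.2 to 93.8 CPM in WT fractions 7 and 8, with little spread in either.

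**Figure D1:**
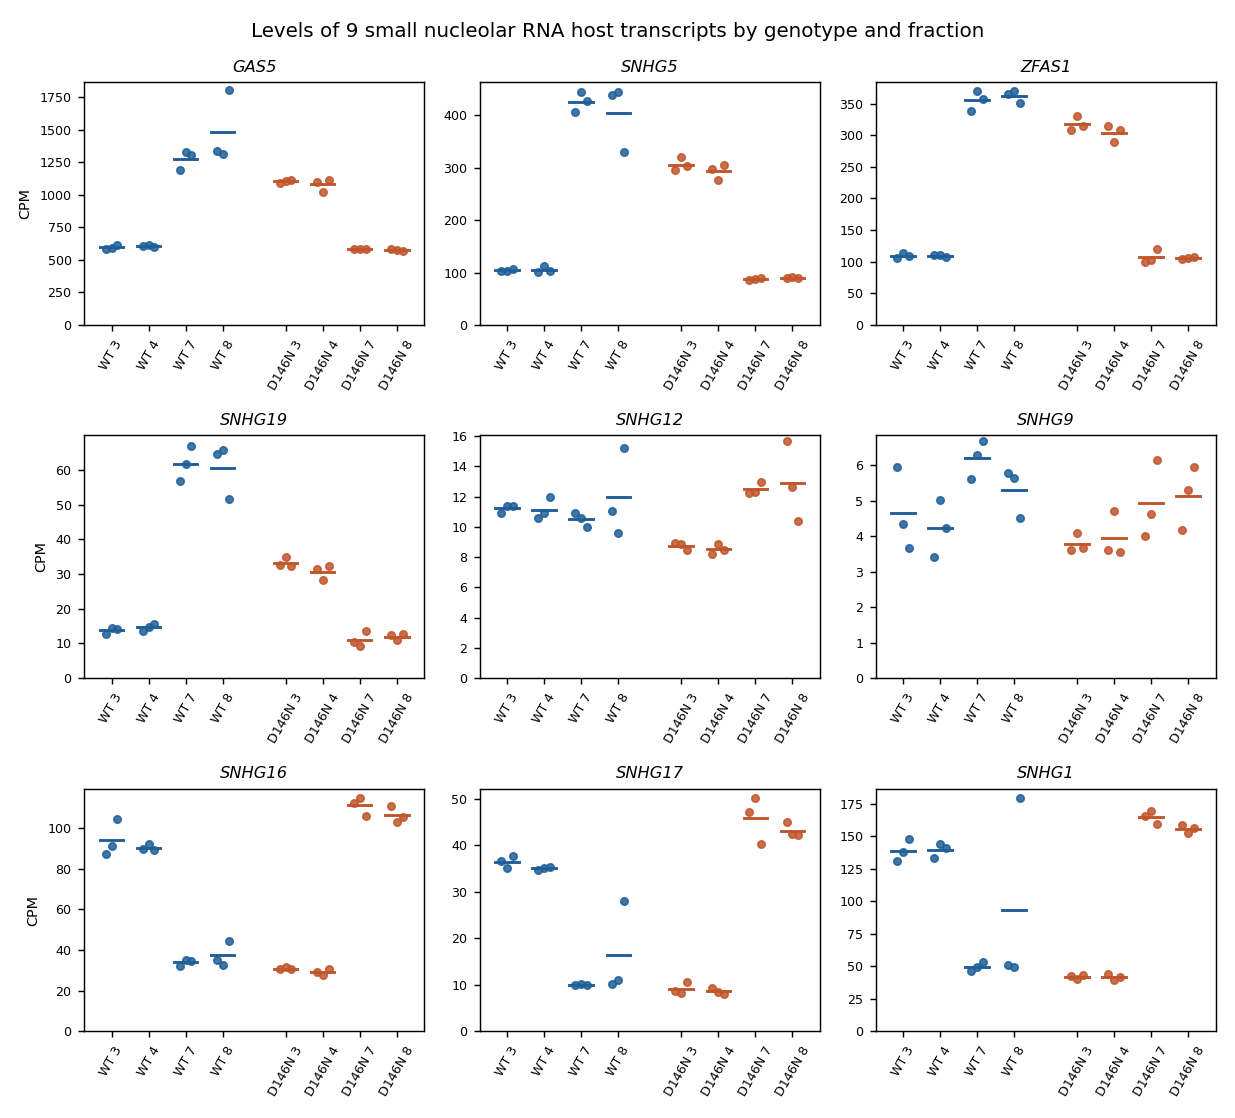
CPM of 9 hosts in each library (points, 3 per group) with the group mean (line), by genotype and fraction (x axis), each panel with its own y axis from 0. GAS5, SNHG5, ZFAS1 and SNHG19 are high in WT 7 and 8 and D146N 3 and 4, and SNHG16 and SNHG17 are high in the other groups. Replicate 3 is the highest point of WT 8 for GAS5, SNHG1, SNHG12, SNHG16 and SNHG17. It is the lowest point of WT 8 for SNHG5, SNHG9, SNHG19 and ZFAS1.

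Another 6 hosts ran the way most rows did, lower in WT fractions 7 and 8 and higher in D146N fractions 7 and 8, without overlap: SNHG4, SNHG10, SNHG16, SNHG17, SNHG22 and SNHG26. SNHG16 (chr17:76557764-76565348), host of SNORD1A, SNORD1B and SNORD1C, had 87.2, 91.3 and 104.3 CPM in WT fraction 3, 89.9, 92.4 and 89.1 in fraction 4, 32.2, 35.0 and 34.5 in fraction 7, and 35.0, 32.9 and 44.3 in fraction 8. In D146N it had 27.7 to 31.5 CPM in fractions 3 and 4 and 102.9 to 115.1 CPM in fractions 7 and 8. SNHG17, host of 4 SNORA71 genes, had 34.6 to 37.7 CPM in WT fractions 3 and 4 and 9.88 to 10.9 CPM in fractions 7 and 8, apart from 27.99 CPM in replicate 3 of fraction 8. SNHG26 (SNORD93) and SNHG4 (SNORA74A and SNORA74D) were lower, at means of 3.07 and 9.61 CPM in WT fractions 3 and 4 and of 0.94 and 2.85 CPM in fractions 7 and 8. SNHG4 starts at the same base as MATR3 in the annotation, and how reads shared by both were split is not given in the sources used here.

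For 5 of the remaining hosts, 1 library decided the WT pattern. SNHG1, SNHG7, SNHG11, SNHG12, SNHG21, SNHG29, SNHG30 and SNHG32 were higher in D146N fractions 7 and 8 but overlapped between WT fractions. Without replicate 3 of WT fraction 8, SNHG1, SNHG7, SNHG11, SNHG29 and SNHG30 no longer overlapped and were lower in WT fractions 7 and 8, so that 11 hosts were higher, 11 lower and 5 overlapped. The background over all rows of at least 1 CPM was then 5.81% higher and 88.6% lower. SNHG15 (SNORA9) alone was higher in fractions 7 and 8 in both genotypes, at 43.1 to 46.0 CPM against 36.3 to 42.6 CPM in WT without that replicate and at 47.8 to 55.4 against 36.2 to 38.9 CPM in D146N. SNHG31 was lower in WT fractions 7 and 8 (0.0643 to 0.165 CPM against 0.27 to 0.636) and overlapped in D146N. SNHG3 and SNHG9 overlapped in both genotypes, as did SNHG14, SNHG18, SNHG27 and SNHG28 with a mean of at most 0.21 CPM.

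Replicate 3 of WT fraction 8 differed from its replicates most in SNHG29, SNHG1, SNHG11 and SNHG7. SNHG29 (chr17:16438987-16470648), host of SNORD49A, SNORD49B and SNORD65, had 356.7 and 337.0 CPM in replicates 1 and 2 of WT fraction 8 and 1731 CPM in replicate 3, where no other of the 24 libraries exceeded 513.0. SNHG1, host of 8 small RNAs from SNORD22 to SNORD31, had 50.7 and 49.2 CPM in replicates 1 and 2 and 179.6 in replicate 3. SNHG11 was 3.45 times, SNHG7 2.90 times and SNHG17 2.67 times as high in replicate 3 as in the mean of replicates 1 and 2. In all, 9 of 27 hosts with enough counts were at least 2 times as high there, against 16.93% of 13706 rows, and none were in the other 7 groups. The hosts' median ratio was 1.46 and that of all rows 1.31. The hosts GAS5, DANCR, TAF1D, SNHG29, SNHG3, SNHG15 and 6 others had their highest value of all libraries in it (12 of 27, 44.4%, against 5.21% of rows). These shares also carry the fraction pattern. Of rows with a mean of at least 1 CPM, 84.4% were lower in all WT fraction 7 and 8 libraries than in WT fractions 3 and 4. Such rows could not peak there, while GAS5, DANCR and TAF1D were high in WT fractions 7 and 8 in all replicates. SNHG5, SNHG9, SNHG19 and SNHG6 stood at 0.749, 0.789, 0.793 and 0.844 times there. ALB and AFP were also higher in this library, at 27.1 and 27.1 CPM against 6.46 to 8.74 CPM in replicates 1 and 2, and the part of any of this in the host results was not tested.

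**Figure D2:**
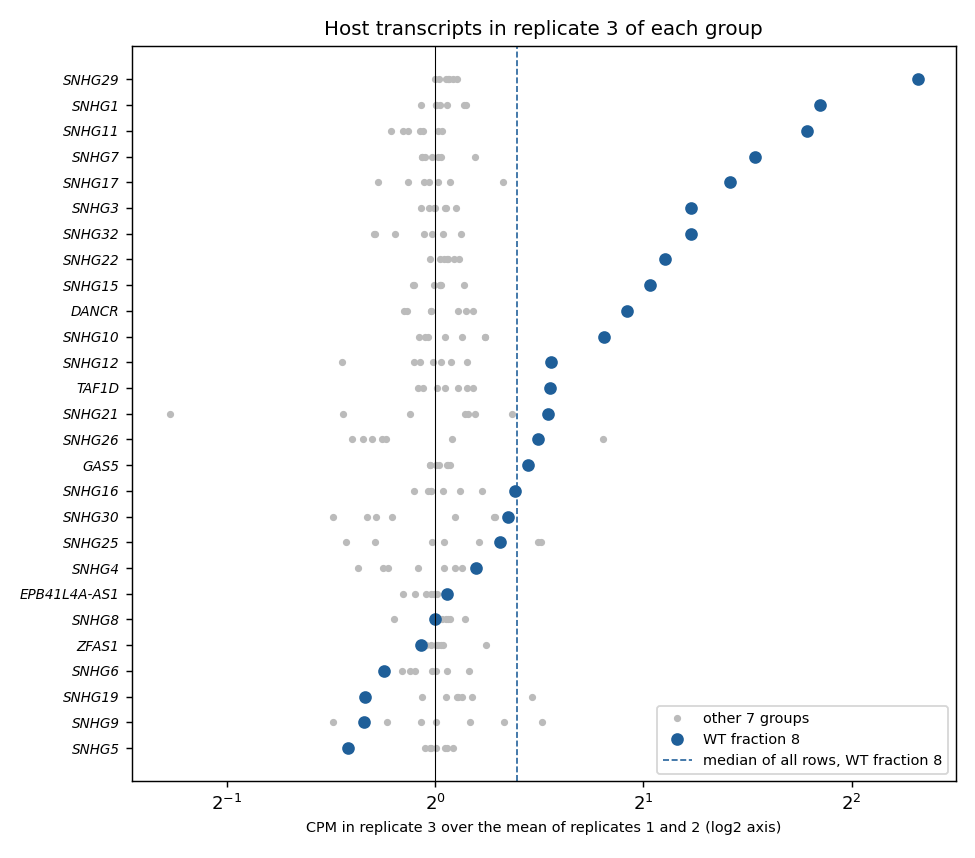
CPM in replicate 3 divided by the mean of replicates 1 and 2 (log2 axis) for 27 hosts, for WT fraction 8 (large points) and the 7 other groups (small points). SNHG29 reaches 4.99 and SNHG5 0.749 in WT fraction 8, where the median over all rows, the dashed line, is 1.31.

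Relative to the typical gene, most hosts were shifted towards WT fractions 7 and 8. This was tested with edgeR's quasi-likelihood test in 1 model of the 8 groups over the 24 libraries, with TMM scaling and Benjamini-Hochberg adjustment over 18907 genes, and a call is an adjusted p under 0.05. TMM sets the typical gene near 0, with mean factors of 2.51 for fraction 3 of WT, 0.365 for fraction 7 of WT, 0.366 for fraction 3 of D146N and 2.81 for fraction 7 of D146N. On this scale a change can therefore differ in sign from a CPM ratio, and library totals, which follow CPM, are given beside the host counts and for the hosts named with both values. Values given alone are on the TMM scale. In WT, 25 hosts were called higher in fractions 7 and 8, 1 lower and 3 did not pass, against 34.6% of all genes called higher and 39.3% lower (73.9% either way). Their median log2 fold change was 2.82 where that of all genes was -0.18. On library totals, 12 hosts were higher, 11 lower and 6 did not pass (7.66% and 83.6% of all genes), with medians of 0.18 for hosts and -2.83 for all genes. The distance from the median gene was 3.00 with TMM and 3.01 on library totals. Changing the scaling shifts all genes by about the same amount, so this distance could hardly differ.

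The order of hosts was led by those whose CPM rose. SNHG19 changed by 4.81 (SE 0.12, adjusted p 1.18e-20), SNHG5 of 4.69 (SE 0.11, adjusted p 6.21e-29), SNHG25 of 4.49 (SE 0.12) and ZFAS1 of 4.41 (SE 0.09), and on library totals they stood at 2.11, 1.98, 1.81 and 1.71. SNHG6, EPB41L4A-AS1, TAF1D, GAS5, SNHG8 and DANCR followed between 4.11 and 3.76, and between 1.41 and 1.11 on library totals. SNHG9, SNHG15, SNHG32, SNHG29, SNHG3, SNHG12 and SNHG11 lay between 3.07 and 2.52, where library totals gave -0.11 to 0.37. Those 17 hosts and SNHG30, SNHG7, SNHG21, SNHG1, SNHG16, SNHG17, SNHG26 and SNHG4, the last at 0.94 (SE 0.11), were called higher with TMM. On library totals the last 8 were called lower. SNHG22 was called lower at -1.81 (SE 0.08, adjusted p 1.04e-21), and at -4.46 on library totals. SNHG10 at 0.08, SNHG31 at 0.79 and SNHG14 at -0.27 did not pass.

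D146N gave nearly the mirror image. Fractions 7 and 8 were called lower for 25 hosts, higher for 1 and neither for 3, against 30.3% of genes lower and 29.9% higher (60.2% either way), with a median of -2.37 against 0.10 for all genes. On library totals 18 hosts were higher, 10 lower and 1 did not pass (88.9% and 4.08% of genes, 92.9% either way), with medians of 0.56 and 3.00. SNHG5 stood at -4.67 (SE 0.11), ZFAS1 at -4.47 (SE 0.09), SNHG19 at -4.40 (SE 0.12) and EPB41L4A-AS1 at -4.14 (SE 0.08). SNHG22 was called higher at 0.88 (SE 0.07), and SNHG10, SNHG31 and SNHG14 again did not pass. SNHG10 was called higher when 1 library was left out for 6 of the 12 libraries. On library totals SNHG10, SNHG31 and SNHG14 were called higher, at 3.06, 1.74 and 2.26. The same 10 hosts listed for their CPM were called higher in WT and lower in D146N on both scales. They had been picked by those CPM values, which library totals follow. TMM moves all genes in the direction of these changes, so the calls on the 2 scales are not separate evidence.

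**Figure D3:**
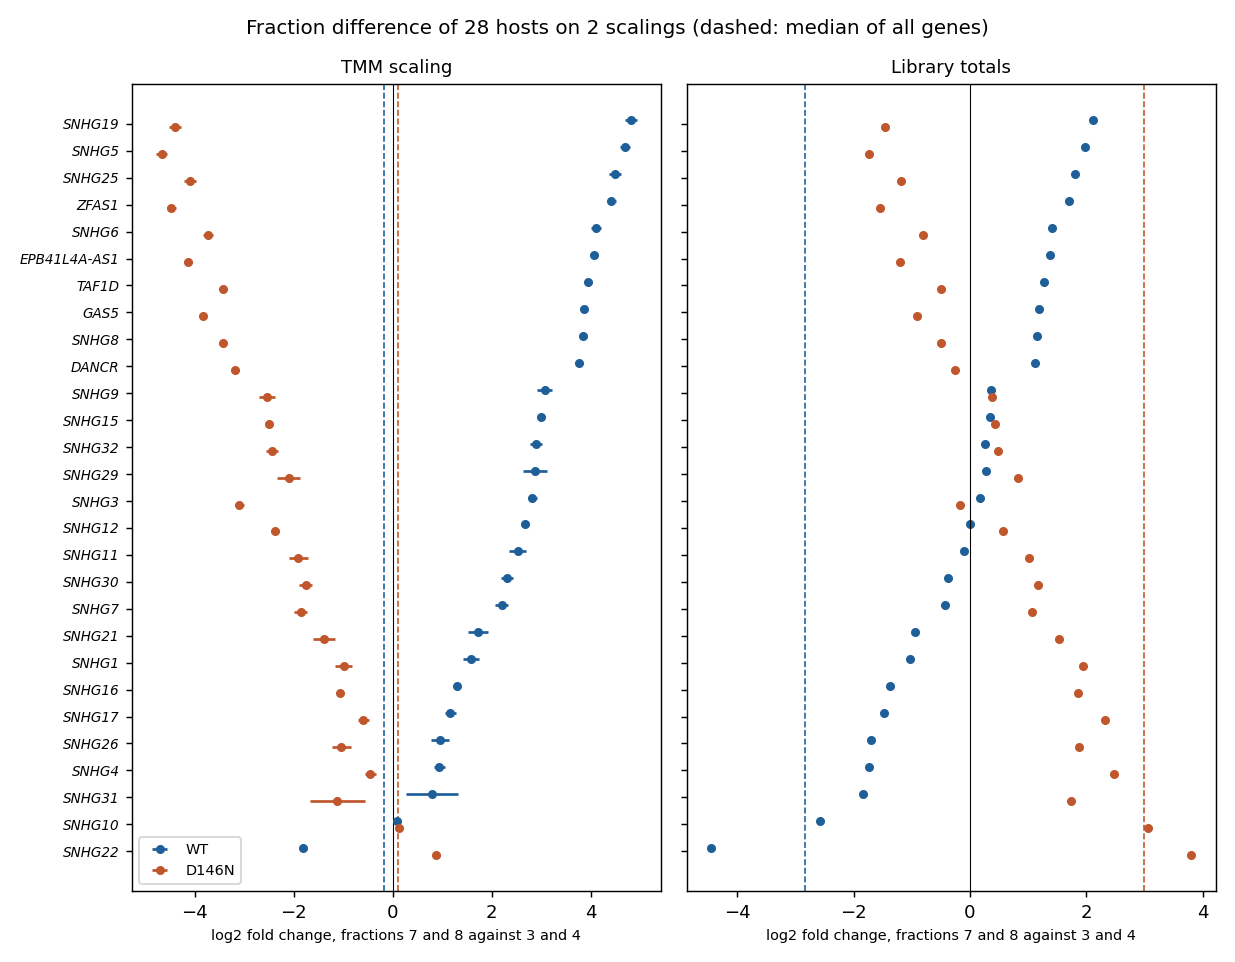
Log2 fold change of fractions 7 and 8 against 3 and 4 for 28 hosts in WT and D146N (points, with SE bars on the left), with TMM scaling and on library totals; SNHG14, with an SE of 1.69 in WT, is left out. Dashed lines mark the median of all genes in each genotype, -0.18 and 0.10 on the left and -2.83 and 3.00 on the right.

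The difference between genotypes in this contrast was tested as an interaction, D146N minus WT. It was negative and called for 26 hosts, positive and called for 1 and not called for 2, against 35.4% of genes negative and 41.7% positive (77.1% either way), with a median of -5.04 against 0.33. On library totals 14 hosts were positive and 10 negative (88.1% and 6.41% of genes), with medians of 0.55 and 5.88. SNHG5 had the lowest value, -9.36 (SE 0.15, adjusted p 8.86e-34) and -3.73 on library totals. SNHG22 had the 1 positive call, 2.69 (SE 0.10), and 8.27 on library totals. SNHG10, at 0.05 (SE 0.10) with TMM, was not called, and stood at 5.64 on library totals.

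Without replicate 3 of WT fraction 8 the calls in the WT contrast did not change in number, 26 of 29, and its median became 2.64. Values fell in SNHG29, from 2.87 to 2.41, in SNHG1 and SNHG11, from 1.58 to 1.27 and from 2.52 to 2.21, and in SNHG7, from 2.20 to 1.96. SNHG14, on few counts, changed sign from -0.27 to 0.07 and was called in neither case. The interaction then had 27 calls with a median of -5.00.

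RefSeq places 154 small RNAs inside the spans of 30 hosts, and 137 of them had 1 row of their own in the table. Most were barely counted: 84 of these rows had no counts, 125 had a mean under 1 CPM, and 3 had a mean of at least 10 CPM. Those 3 were SCARNA13 in SNHG10, SCARNA17 in SNHG22 and SNORA73B in SNHG3, and for each the host row has to be read beside the small RNA row, since how reads that fit both were divided is not given in the sources used here. The strand of the small RNAs was not in the table used, so position alone placed them. A remainder, the host row minus the small RNA row, assumes that the first contains the second, which was not checked.

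The SNHG10 row was largely the size of SCARNA13, an RNA of 275 bases. SCARNA13 had 205.9, 198.3 and 196.0 CPM in WT fraction 3 and 26.0, 26.8 and 26.2 CPM in WT fraction 7, where SNHG10 had 218.7, 211.7 and 209.9 and then 31.6, 33.1 and 31.3 CPM. The small RNA row equalled 93.7% ± 0.385 of the host row in WT fraction 3, 82.3% ± 1.29 in WT fraction 7, 88.5% ± 0.544 in D146N fraction 3 and 95.5% ± 0.68 in D146N fraction 7 (SD, n = 3). What the host row held beyond SCARNA13 was 13.4 ± 0.54, 5.68 ± 0.575, 4.35 ± 0.336 and 12.8 ± 1.94 CPM in the same groups. In WT fraction 8 the share was lowest, 76.6% ± 9.68, with a remainder of 20.21 CPM in replicate 3 against 6.34 and 5.60 in replicates 1 and 2. In CPM the remainder, like the whole row, was lower in WT fraction 7 than 3 and higher in D146N fraction 7 than 3. As a ratio it changed less than SCARNA13, whose mean went from 200.1 to 26.3 CPM in WT and from 33.3 to 271 in D146N. It also fell less in WT and rose less in D146N than the median gene on library totals (-2.83 and 3.00, fractions 7 and 8 against 3 and 4). SCARNA13 stood at -0.17 in WT and 0.26 in D146N with TMM, and the remainder has no TMM value.

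SNHG22 and SCARNA17 have the same annotated start. SNHG22 had 371.0, 382.2 and 382.5 CPM in WT fraction 3, 353.0, 382.0 and 398.5 in fraction 4, 14.2, 14.2 and 15.1 in fraction 7, and 15.1, 14.5 and 31.8 in fraction 8. In D146N it had 27.5 to 31.8 CPM in fractions 3 and 4 and 383.8 to 443.5 CPM in fractions 7 and 8. The ratio of fractions 7 and 8 to 3 and 4 was 0.0462 in WT and 14.0 in D146N, and the SCARNA17 row equalled between 58.1% and 63.4% of SNHG22 in the 8 groups. With TMM, SCARNA17 changed by -1.75 in WT and 0.96 in D146N (-4.41 and 3.89 on library totals), close to the -1.81 and 0.88 of its host, and the 2 rows share sequence.

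SNHG3 differed from both, since subtracting SNORA73B gave pieces whose CPM ran in opposite directions between fractions 3 and 7. That split assumes that the SNHG3 row contains the SNORA73B row, which was not checked. The whole SNHG3 row had 63.2, 76.7 and 68.5 CPM in WT fraction 3 and 63.6, 66.9 and 67.3 in WT fraction 7, with overlap. SNORA73B, an H/ACA RNA of 205 bases that acts in early ribosomal RNA processing, rose from 12.8 ± 1.48 to 42.0 ± 5.15 CPM between these groups, while the rest of the SNHG3 row went from 56.7 ± 6.95 to 23.95 ± 3.17 CPM. D146N showed the reverse, with SNORA73B at 40.7 ± 2.13 CPM in fraction 3 and 13.8 ± 1.7 in fraction 7 and the rest at 14.8 ± 1.81 and 36.0 ± 3.76 CPM. SNORA73B equalled 18.5% of the host row in WT fraction 3, 63.6% in WT fraction 7, 73.3% in D146N fraction 3 and 27.7% in D146N fraction 7. With TMM SNORA73B was called at 4.47 in WT and -4.46 in D146N (1.81 and -1.54 on library totals). On library totals the median gene stood at -2.83 in WT and 3.00 in D146N for fractions 7 and 8 against 3 and 4. The rest of the SNHG3 row fell less than that in WT and rose less in D146N. Relative to the median gene the rest therefore moved the same way as SNORA73B, though it has no TMM value. In WT fraction 8 replicate 3 both pieces were high, SNORA73B at 64.24 and the remainder at 89.17 CPM, against 41.65 and 42.14 CPM and 22.03 and 25.07 CPM in replicates 1 and 2. The remainder includes SNORA73A, a second H/ACA RNA with a mean of 6.91 CPM, and SNHG3 overlaps RCC1, so it is not the spliced host alone.

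Among the 12 small RNA rows of at least 1 CPM, SNORD104, SNORA73A and SNORA74A were picked for mention after their values were seen. SNORD104 in SNHG25 equalled 64.0% to 81.9% of its host row as group means, with SDs of 3.26 to 28.1 (n = 3). In D146N fraction 8 replicate 2 it exceeded the host row, with a remainder of -0.248 CPM, so it was not contained there. SNHG25 at 340 bases of span is the shortest member, and its values cannot be taken apart from those of SNORD104. SNORA74A exceeded its host SNHG4 in WT fractions 7 and 8 and D146N fractions 3 and 4 (in WT fraction 7, 9.98 ± 1.19 against 2.68 ± 0.397 CPM), so the small RNA row there is not contained in the host row and no remainder is given. Without SNHG3, SNHG10, SNHG22 and SNHG25 the 25 remaining hosts gave 23 calls in WT with a median of 2.87.

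**Figure D4:**
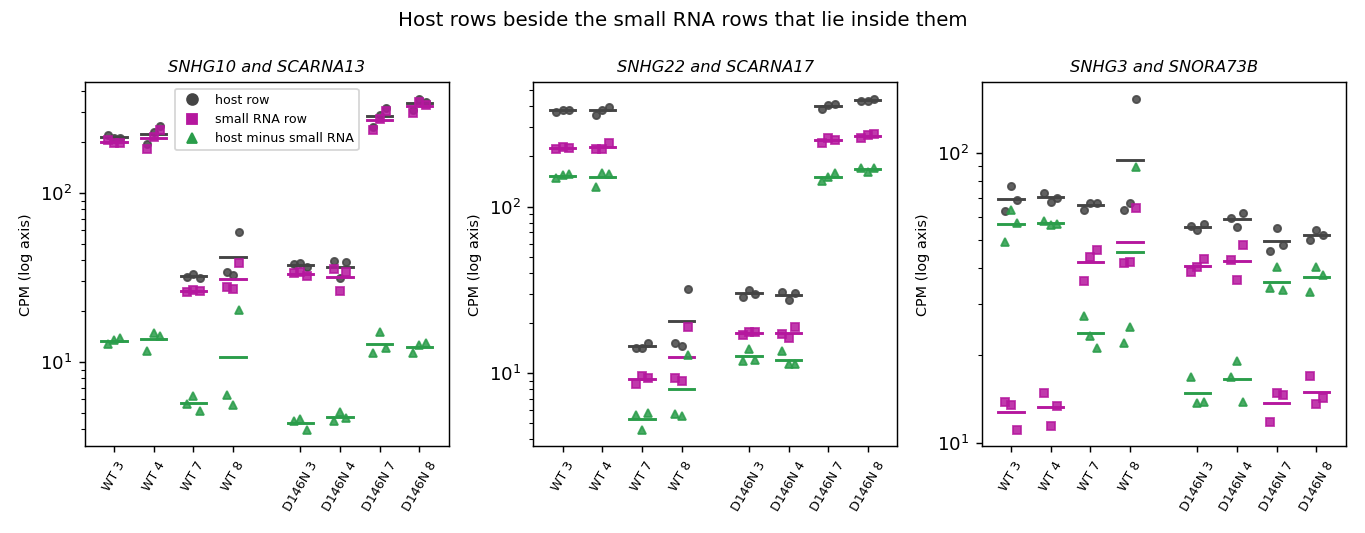
CPM (log axis) of 3 host rows, of the small RNA row inside each and of the difference between the 2, in each library (points) with group means (lines). SNHG10 and SNHG22 follow SCARNA13 and SCARNA17. For SNHG3 the small RNA and the difference run in opposite directions in CPM, if the host row contains the small RNA row.

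Within single fractions the hosts differed between genotypes as the fraction contrasts imply. In fraction 3, D146N was called higher than WT for 27 hosts and lower for 1, against 25.8% and 23.9% of genes (49.7% either way), with a median of 2.45. In fraction 4 it was higher for 25 and lower for 1 (25.7% and 22.8% of genes, 48.5% either way), with a median of 2.39. In fraction 7 it was higher for 1 and lower for 25 (32.4% and 31.1%, 63.5% either way), with a median of -2.66, and in fraction 8 higher for 2 and lower for 25 (32.5% and 32.6%, 65.1% either way), with a median of -2.81. Without replicate 3 of WT fraction 8 the fraction 8 comparison also had 27 calls, with a median of -2.49. On library totals the medians were -0.32, -0.39, 0.29 and -0.16, with 10 hosts higher and 13 lower in fractions 3 and 4 (3.91% and 84.7% of genes, then 3.78% and 84.3%), 12 and 10 in fraction 7 (83.6% and 5.41%) and 10 and 11 in fraction 8 (80.9% and 6.08%). GAS5 was higher in D146N by 3.67 (SE 0.10) in fraction 3 and lower in fraction 7, at -4.07 (SE 0.10), and stood at 0.89 and -1.13 on library totals. Whether these are effects of the mutant or of numbering cannot be told apart.

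Set crosswise, the genotypes were much closer, and the hosts called stood between -0.86 (SNHG19) and 0.92 (SNHG22) over the 2 comparisons. D146N fractions 7 and 8 against WT fractions 3 and 4 gave 2 hosts higher, 5 lower and 22 not called, against 6.90% and 10.4% of genes, with a median of 0.03. The 5 lower were SNHG3 at -0.60 (SE 0.09, adjusted p 2.93e-06), SNHG19 at -0.44 (SE 0.12, adjusted p 0.00944), SNHG5 at -0.38 (SE 0.09, adjusted p 0.00427), EPB41L4A-AS1 at -0.23 (SE 0.07) and GAS5 at -0.21 (SE 0.06). SNHG30, host of SNORD7, was higher at 0.47 (SE 0.12), as was SNHG10 at 0.36 (SE 0.07). On library totals SNHG3, SNHG19 and SNHG5 stayed lower, at -0.46, -0.30 and -0.23, EPB41L4A-AS1 and GAS5 did not pass, and in all 5 hosts were higher and 3 lower (16.9% and 5.29% of genes). EPB41L4A-AS1 lost its call without 4 of the 12 libraries, taken 1 at a time, and GAS5 without 1 of them.

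In the other crosswise comparison, hosts were more often lower in D146N. D146N fractions 3 and 4 against WT fractions 7 and 8 gave 18 hosts lower, 1 higher and 10 not called, against 12.1% of genes lower and 17.1% higher, with a median of -0.33 against 0.01 for all genes. On library totals 20 hosts were lower and 1 higher (15.0% and 12.0% of genes), with a median of -0.46. SNHG19 was lowest at -0.86 (SE 0.11, adjusted p 1.19e-06), with 28.4 to 35.0 CPM in D146N and 51.7 to 67.0 in WT. SNHG29 at -0.74 and SNHG11 at -0.73 followed, but without replicate 3 of WT fraction 8 they stood at -0.29 and -0.44. SNHG1 then moved from -0.54 to -0.24 and SNHG17 from -0.39 to -0.19. Without that replicate the comparison had 21 calls, in either direction, with a median of -0.23, and the share of all genes called was not counted. SNHG8 at -0.50 (SE 0.07), TAF1D at -0.47 (SE 0.06), SNHG6 at -0.38 (SE 0.09) and SNHG5 at -0.40 (SE 0.09) stood at -0.57, -0.46, -0.48 and -0.52 without it. ZFAS1 and EPB41L4A-AS1, not called by edgeR with TMM and all libraries, were called without that replicate at -0.20 and -0.21, and with all libraries on library totals, with median-of-ratios size factors and by DESeq2. SNHG7 and SNHG32 were also called with median-of-ratios size factors and by DESeq2. SNHG22 was higher at 0.92 (SE 0.08, adjusted p 9.42e-12), with 27.5 to 31.8 CPM in D146N against 14.2 to 15.1 in WT and 31.8 in replicate 3 of WT fraction 8. SNHG16, at -0.14 with an adjusted p of 0.0483, lost its call when any 1 of 11 of the 12 libraries was left out, and stood at an adjusted p of 0.0593 with replicate number as a block. Other calls in this comparison were lost too: with no filter SNHG1, SNHG4, SNHG12, SNHG16 and SNHG29 did not pass (adjusted p 0.0526 to 0.517), nor did SNHG1, SNHG16, SNHG17 and SNHG29 in fits on only the groups compared (0.0758 to 0.0977).

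**Figure D5:**
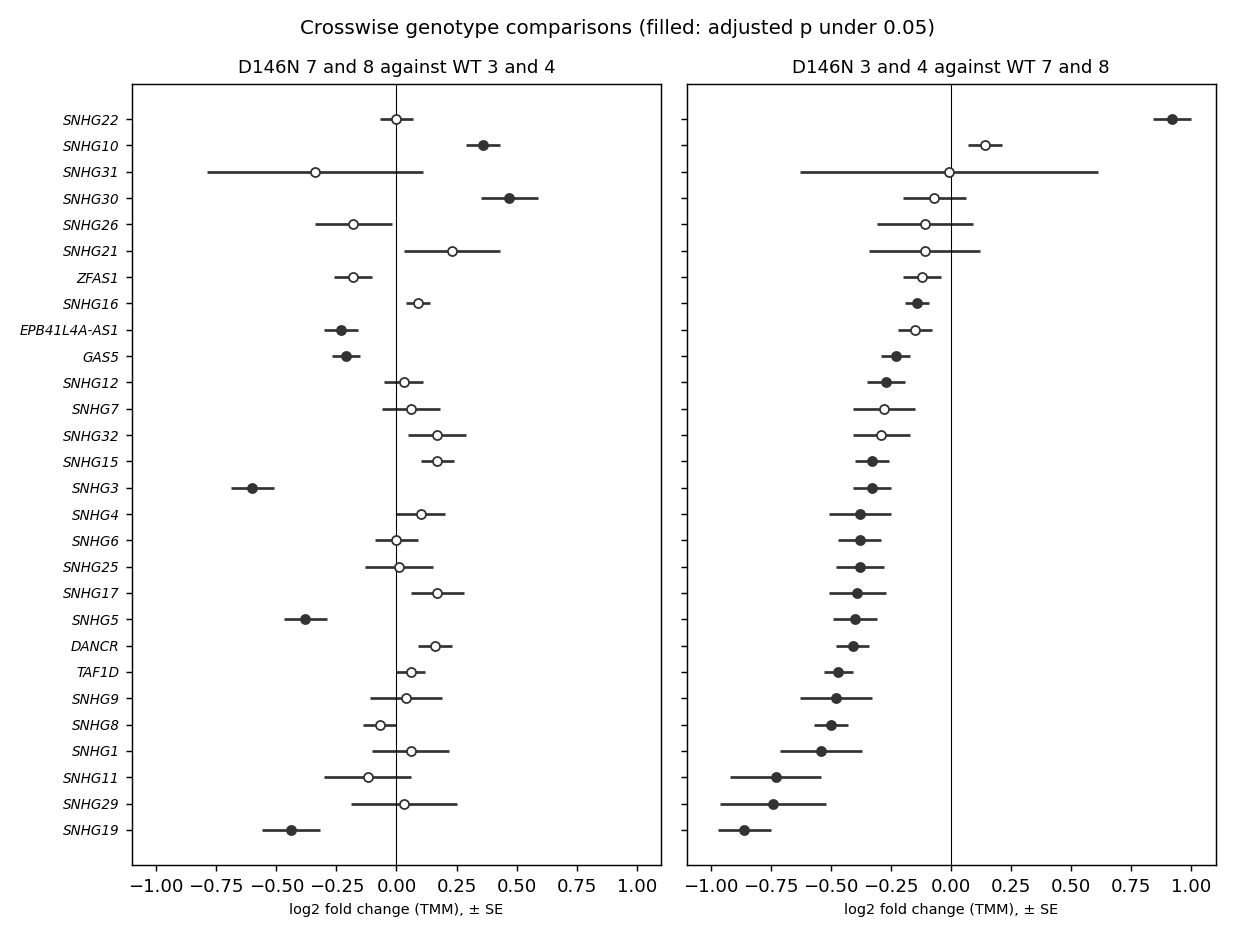
Log2 fold change with TMM (points, SE bars) of 28 hosts in the 2 crosswise comparisons, filled where the adjusted p was under 0.05; SNHG14 is left out. Most points of the left panel are open and near 0, and 18 of the right panel are filled below 0 with SNHG22 at 0.92 above it.

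Over the mean of all 4 fractions, D146N was called lower than WT for 10 hosts and higher for 2, against 9.66% and 13.5% of genes, with a median of -0.15. Without replicate 3 of WT fraction 8 there were 15 calls, in either direction, and a median of -0.14. The share of all genes called in that fit was not counted. With all libraries SNHG19 was lowest at -0.65 (SE 0.08, adjusted p 1.68e-06), then SNHG3 at -0.47 (SE 0.06), SNHG11 at -0.43 (SE 0.13) and SNHG5 at -0.39 (SE 0.07). SNHG22 at 0.46 (SE 0.05) and SNHG10 at 0.25 (SE 0.05) were higher. GAS5, at -0.22 (SE 0.04, adjusted p 0.00033), was among the lower hosts, with TAF1D at -0.20, EPB41L4A-AS1 at -0.19 and ZFAS1 at -0.15. On library totals 9 were lower and 2 higher (7.44% and 14.0% of genes), and SNHG11 was not among the 9. SNHG11 was 3.45 times as high in WT fraction 8 replicate 3 as in the mean of replicates 1 and 2. Its value in this comparison without that replicate is not given. The mean of 4 fractions is not the total RNA of a cell, because the other fractions are not part of it.

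Neighbouring fractions of a genotype gave no calls. Fraction 4 against 3 and fraction 8 against 7 gave 0 calls among hosts in either genotype with edgeR's quasi-likelihood fit, with 0% of all genes called in each. DESeq2 also called 0. At an unadjusted p under 0.05 there were 1 host in WT fraction 4 against 3, 5 in WT fraction 8 against 7, 2 in D146N fraction 4 against 3 and 1 in D146N fraction 8 against 7. The share of all genes at that threshold was not counted, so these host numbers have no background to be read against. The 5 hosts in WT fraction 8 against 7 were SNHG29, SNHG1, SNHG17, SNHG15 and SNHG22, all high in replicate 3, without which edgeR also called 0.

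Other genes of the pathway were counted the same way, with TMM, against 34.6% of all genes higher and 39.3% lower in WT, and 29.9% higher and 30.3% lower in D146N. Of 43 protein-coding genes known to host snoRNAs, 28 rose, 14 fell and 1 was not called between WT fractions 3 and 4 and fractions 7 and 8, with a median of 3.01 and of 0.35 on library totals, and in D146N 11 were higher and 29 lower, with a median of -2.81. Among those with the most counts, the ribosomal protein mRNAs RPL12 and RPS2 stood at 5.33 and 4.55 in WT and at -5.50 and -4.43 in D146N. Of the 8 core proteins that bind snoRNAs, 4 mRNAs were higher and 3 lower in WT, with a median of 0.22 and of -2.46 on library totals. FBL, the methyltransferase of box C/D particles, stood at -0.74 (SE 0.27), NOP58 at -0.70 and NOP56 at 0.70, where library totals gave -3.33, -3.39 and -1.97. Of 10 assembly factors 2 were higher and 6 lower, with NOLC1 at -1.32 and the ATPases RUVBL1 and RUVBL2 at -0.59 and -0.46. Of 17 nonsense-mediated decay factors 3 were higher and 9 lower, with a median of -0.17, SMG1 at -1.51 and SMG5 at -1.28. Of 12 tested long noncoding RNAs that are not hosts, 6 were higher and 6 lower, with MALAT1 at -1.94, NEAT1 at -1.70 and NORAD at -0.59.

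The start tract described for the printed sequences did not sort the hosts cleanly by CPM pattern. Of the 8 hosts with an entry among the 10 that rose in WT and fell in D146N, 4 held it at the first base: SNHG5, SNHG19, TAF1D and ZFAS1. GAS5, with 2.29 times as much CPM in WT fractions 7 and 8 as in 3 and 4, did not hold it there in the entry used. It was held by 1 of the 6 hosts of the reverse pattern, SNHG4, and by 2 of the 8 that were higher in D146N and overlapped in WT, SNHG12 and SNHG32. SNHG12 had 10.6 to 11.9 CPM in WT fractions 3 and 4 and 9.62 to 15.2 CPM in fractions 7 and 8. These counts are a description of annotated starts and were not tested.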

How the data were processed

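The deposited table holds expected counts per gene, 1 column per library for 24 libraries, which the authors made with Bowtie2 2.3.5, HISAT2 2.1.0, SAMtools and featureCounts 1.5.1 on hg38, per the submitters' processing notes; the options, including strand, are not given in the sources used here. Values were rounded for tests; 73.3% of those above 0 lay within 0.005 of a whole number. Symbols were matched for 99.92% of 61853 rows. Library totals were 21.2 to 33.0 M counts, and genes with few counts are the least precise.

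Each comparison was a contrast in 1 edgeR 4.0.16 quasi-likelihood fit (R 4.3.3, limma 3.58.1, robust, 8 group means, TMM, filterByExpr, 18907 genes, Benjamini-Hochberg adjustment), run on simulated data first. Few genes changed in the simulated data, whereas 73.9% of genes were called in the real WT contrast. That run therefore cannot check the scaling or the error rate where most genes change. Alternatives were library totals, median-of-ratios size factors, DESeq2 1.42.0, no filter, fits on only the groups compared, a replicate block, dropping small and mitochondrial RNA rows, and leaving out each library. Leaving out WT fraction 8 replicate 3 on its own, subtracting small RNA rows and dropping 4 hosts were chosen after seeing the data.

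Members and gene lists were chosen with earlier results of these data known. All members could be named, with DIS3, small RNAs inside a host of at least 10 CPM and the 3 genes with the highest mean CPM of each other list. Some genes that this rule names are not reported here. The strand of small RNAs was not in the RefSeq table, so that part of the rule was not applied.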

Additional observations from a re-analysis of the deposited data

Results flagged for a closer look

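Each result here is a difference between genotypes in the contrast of fractions 7 and 8 against 3 and 4, D146N minus WT, that passed the interaction test of edgeR's quasi-likelihood fit with Benjamini-Hochberg adjustment and TMM scaling. Among the 10 hosts for which it was also negative and called on library totals (-3.73 to -1.37) it was -9.36 for SNHG5, -9.21 for SNHG19, -8.88 for ZFAS1, -8.59 for SNHG25, -8.21 for EPB41L4A-AS1, -7.84 for SNHG6, -7.71 for GAS5, -7.37 for TAF1D, -7.28 for SNHG8 and -6.95 for DANCR.

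Hosts nearer the middle had smaller values. They were -5.92 for SNHG3, -5.61 for SNHG9, -5.50 for SNHG15, -5.34 for SNHG32, -5.04 for SNHG12, -4.97 for SNHG29, -4.43 for SNHG11, -4.06 for SNHG7 and -4.06 for SNHG30. On library totals SNHG3, SNHG9, SNHG15, SNHG32 and SNHG29 were not called, at -0.35, 0.01, 0.08, 0.23 and 0.55, and SNHG12, SNHG11, SNHG7 and SNHG30 were called with the opposite sign, at 0.56 to 1.54. Below them stood SNHG21 at -3.10, SNHG1 at -2.57, SNHG16 at -2.38, SNHG26 at -2.00, SNHG31 at -1.91, SNHG17 at -1.76 and SNHG4 at -1.39, and on library totals each of these 7 was called with the opposite sign, at 2.48 to 4.21. SNHG22 was positive at 2.69, and at 8.27 on library totals.

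Of the small RNA rows inside hosts, SNORA73B stood at -8.93, SNORD104 at -8.66, SCARNA17 at 2.72 and SCARNA13 at 0.43. DIS3 itself stood at 2.04. Since most genes ran in opposite fractions in the 2 genotypes, an effect of the mutant and the numbering of fractions cannot be told apart in any of these values.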

How the results depend on the processing

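On library totals the median host log2 fold change was 0.18 in the WT contrast of fractions 7 and 8 against 3 and 4, 0.56 in D146N and 0.55 for the interaction. It was -0.32, -0.39, 0.29 and -0.16 for D146N against WT in fractions 3, 4, 7 and 8, 0.18 and -0.46 in the crosswise comparisons, 0.22 for WT fraction 8 against 7 and -0.02 for D146N fraction 8 against 7. That scaling does not centre the median gene. It turned the WT contrast of SNHG31 to -1.84, SNHG4 to -1.74, SNHG26 to -1.71, SNHG7 to -0.43, SNHG1 to -1.03, SNHG10 to -2.58, SNHG21 to -0.95, SNHG30 to -0.37, SNHG16 to -1.37, SNHG17 to -1.48 and SNHG11 to -0.11. It turned the D146N contrast of SNHG12 to 0.56, SNHG31 to 1.74, SNHG4 to 2.47, SNHG32 to 0.48, SNHG26 to 1.88, SNHG15 to 0.43, SNHG7 to 1.07, SNHG1 to 1.94, SNHG14 to 2.26, SNHG21 to 1.53, SNHG9 to 0.38, SNHG29 to 0.83, SNHG30 to 1.17, SNHG16 to 1.85, SNHG17 to 2.32 and SNHG11 to 1.02. In D146N 7 and 8 against WT 3 and 4 it turned SNHG8 to 0.07 and SNHG11 to 0.02.

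Median-of-ratios size factors and DESeq2 gave 2.91 in WT and -0.40 in D146N 3 and 4 against WT 7 and 8. Both called SNHG10 higher in WT, at 0.17, and DESeq2 called SNHG31 lower in D146N, at -1.15. With no filter the medians were 2.43 in WT, -1.88 in D146N, -4.41 for the interaction, 2.32, 2.13, -2.23 and -2.51 in fractions 3, 4, 7 and 8, and -0.24 in D146N 3 and 4 against WT 7 and 8, with more low rows counted. WT fraction 8 against 7 then had 1 call, and SNHG31 stood at 0.04 in the same crosswise comparison. With no filter SNHG10 stood at -0.08 in WT and was called higher in D146N, at 0.25. Fits on only the groups compared gave 2.61 in fraction 4 and -2.76 in fraction 7. For other moves the cause was not tested.

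Leaving out 1 library at a time gave medians of 2.64 to 2.87 in WT, -2.37 to -2.15 in D146N, -5.08 to -4.73 for the interaction, 2.27 to 2.43, 2.26 to 2.47, -2.71 to -2.40 and -2.91 to -2.49 in fractions 3, 4, 7 and 8, and 0.04 to 0.07 and -0.34 to -0.23 crosswise. It gave -0.18 to -0.12 for the mean of 4 fractions, -0.01 to 0.03 for WT fraction 4 against 3, -0.03 to 0.00 for D146N fraction 4 against 3, -0.01 to 0.06 for WT fraction 8 against 7 (0 to 1 calls) and 0.01 to 0.02 for D146N fraction 8 against 7. Values near 0 changed sign: SNHG10 in WT (-0.08 to 0.09), SNHG14 in WT (-2.26 to 0.16) and D146N (-1.66 to 1.30), SNHG31 (-0.40 to 0.28) in D146N 3 and 4 against WT 7 and 8, and SNHG9 (-0.03 to 0.18), SNHG12 (-0.02 to 0.12) and SNHG25 (-0.06 to 0.15) in D146N 7 and 8 against WT 3 and 4.

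With replicate number as a block the counts of calls were 26 in WT, 26 in D146N and 27 for the interaction, and 1 gene result lost its call, SNHG16 at -0.14. Deviations of same-numbered libraries correlated between -0.02 and 0.03, and 14 of 36 pairs within a genotype were best with their own number. No pairing by number was seen, but this check cannot show whether same-numbered libraries came from 1 gradient.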
